A study of Mus musculus with 9 samples.

Results

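The genes described are the enzymes that place, copy and remove DNA methylation, with the partners that bring them to their sites: Dnmt1, Uhrf1, Dnmt3a, Dnmt3b, Dnmt3l, Tet1, Tet2, Tet3 and Tdg. They were chosen by symbol and are 9 of the 35896 genes to which the quantified transcripts mapped by Ensembl transcript ID (GENCODE release M21). All 9 passed the filter on low counts, as did 14648 genes in all. RNA was sequenced from 9 cultures of E14, an established line of mouse embryonic stem cells, with 3 replicates in each of 3 groups. The +LIF2i group was kept self-renewing with the cytokine LIF, a MEK inhibitor (PD0325901) and a GSK3 inhibitor (CHIR99021), each inhibitor at 1 µM. The -LIF2i group spent 72 h without LIF and both inhibitors, which lets the cells leave self-renewal, and the CK666 group spent the same 72 h with 80 µM CK666, an inhibitor of the Arp2/3 complex that nucleates branched actin, added from a DMSO stock. All groups shared the line and a gelatin-coated, serum-containing culture, and the labels do not state whether the control cultures received DMSO. All cultures came from 1 cell line, so the replicates measure the spread between cultures and not between lines.

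Methylation of cytosine in CpG dinucleotides is copied onto new DNA strands by DNMT1, which UHRF1 guides to hemimethylated sites, and is placed on unmethylated DNA by DNMT3A and DNMT3B, which the catalytically inactive DNMT3L stimulates. The TET proteins oxidise the methyl group, and TDG excises the more oxidised bases so that repair restores an unmodified cytosine. Embryonic stem cells held with both inhibitors are known for low methylation, and the genome gains methylation as cells move towards the formative epiblast.

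The total estimated count per library ran from 16894327 to 22550952, and 3 counts, used as the floor of detection, were worth 0.133 to 0.178 CPM (estimated counts scaled to a common library total), far below every member. The 10 listed embryonic stem cell markers summed to 6091 to 11164 TPM (abundance per transcript length, scaled to a common total) in the +LIF2i group, 3769 to 4418 in the -LIF2i group and 4093 to 6224 in the CK666 group. Pou5f1 was present throughout, at 1490 to 1866, 1199 to 1543 and 1341 to 1572 TPM, while Esrrb went from 281 to 608 TPM with LIF2i to at most 15.1 TPM after withdrawal, Klf4 from 71.3 to 211 to 1.70 to 4.12 TPM and Tfcp2l1 from 71.0 to 264 to 2.11 to 2.94 TPM, and Lin28a was higher (75.4 to 92.7 and then 258 to 481 TPM). The 6 formative markers summed to 103 to 112, 306 to 431 and 182 to 292 TPM in the same order, so their sum was lower in every CK666 library than in every -LIF2i library. Of the 6, Fgf5 and Sox3 were separate between these groups, at 1.72 to 9.36 against 26.5 to 40.5 TPM and at 7.81 to 20.3 against 30.8 to 42.1 TPM, while Otx2, Pou3f1, Zic2 and Dppa4 overlapped. Of other cell types, the 6 fibroblast markers summed to 7.51 to 9.58, 30.2 to 36.9 and 24.0 to 35.9 TPM. The 6 endoderm markers summed to 5.12 to 8.95, 9.77 to 30.9 and 12.2 to 23.2 TPM. Thy1 made up most of the fibroblast sum after withdrawal, at 3.86 to 6.07 TPM with LIF2i and 21.7 to 24.9 TPM without it. Twist1, Col1a2 and Dcn were also separate between the +LIF2i and -LIF2i groups, while Col1a1 and Col3a1 overlapped. Apart from Thy1 and Twist1, no fibroblast marker exceeded 2.56 TPM in any library. Of the endoderm markers, Dab2 was separate (0.901 to 4.99 and then 6.31 to 22.1 TPM). Gata4, Gata6, Sox17, Sox7 and Foxa2 overlapped. The 6 germ cell markers summed to 47.4 to 80.4, 100.6 to 177 and 120.5 to 203 TPM. Between the +LIF2i and -LIF2i groups, Sycp3 and Ddx4 were separate and higher after withdrawal, while Mael, Dazl and Nanos3 overlapped. Prdm1 went the other way (5.70 to 11.8 TPM with LIF2i and 1.46 to 2.31 TPM after withdrawal). The 6 two-cell-like markers summed to 1.17 to 3.08, 4.77 to 10.1 and 0.966 to 3.04 TPM, while the mesoderm, neural and trophoblast sums overlapped between the +LIF2i and -LIF2i groups. No marker of any of the 9 lists was at 0 in every library. The part of these markers in the results below was not tested. The replicate 1 library of the +LIF2i group stood apart, with 15690 genes detected against 17295 to 18749 in the other 8 libraries. Several of the results that moved with it, but not all, are given without it as well.

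The start regions of the genes with the largest rise (Dnmt3b) and the largest fall (Tet2) after withdrawal are shown first, together with both Dnmt3a start regions, which give the long and the short form of that enzyme. Each sequence is the RefSeq window from 250 bases before to 50 bases after an annotated start (GRCm38.p6), read 5′ to 3′ on the gene's strand, and capitals mark CpG dinucleotides, the substrate of these enzymes. The Dnmt3b window lies at chr2:153649199-153649498 (plus strand), the long-form Dnmt3a window at chr12:3806910-3807209 (plus strand), the short-form Dnmt3a window at chr12:3891494-3891793 (plus strand, inside the gene) and the Tet2 window at chr3:133544341-133544640 (minus strand).
Dnmt3b: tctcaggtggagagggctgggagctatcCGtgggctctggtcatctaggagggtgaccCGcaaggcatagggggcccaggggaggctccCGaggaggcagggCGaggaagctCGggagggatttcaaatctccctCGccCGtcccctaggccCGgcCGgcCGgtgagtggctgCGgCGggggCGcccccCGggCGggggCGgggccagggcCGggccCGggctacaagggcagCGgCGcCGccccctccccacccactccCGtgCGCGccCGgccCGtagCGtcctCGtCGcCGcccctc
Dnmt3a long form: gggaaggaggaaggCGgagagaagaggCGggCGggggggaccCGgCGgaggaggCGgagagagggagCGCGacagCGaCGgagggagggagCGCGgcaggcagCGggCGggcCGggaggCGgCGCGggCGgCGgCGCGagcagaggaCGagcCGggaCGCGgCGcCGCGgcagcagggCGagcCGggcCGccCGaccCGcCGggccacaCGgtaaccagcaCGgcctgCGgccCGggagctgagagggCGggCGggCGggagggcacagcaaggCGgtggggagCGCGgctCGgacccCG
Dnmt3a short form: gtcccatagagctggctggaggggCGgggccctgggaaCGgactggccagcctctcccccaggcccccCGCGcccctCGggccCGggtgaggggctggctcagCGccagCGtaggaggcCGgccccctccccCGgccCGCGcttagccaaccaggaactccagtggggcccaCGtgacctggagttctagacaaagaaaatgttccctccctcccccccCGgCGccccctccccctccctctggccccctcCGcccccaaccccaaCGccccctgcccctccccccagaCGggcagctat
Tet2: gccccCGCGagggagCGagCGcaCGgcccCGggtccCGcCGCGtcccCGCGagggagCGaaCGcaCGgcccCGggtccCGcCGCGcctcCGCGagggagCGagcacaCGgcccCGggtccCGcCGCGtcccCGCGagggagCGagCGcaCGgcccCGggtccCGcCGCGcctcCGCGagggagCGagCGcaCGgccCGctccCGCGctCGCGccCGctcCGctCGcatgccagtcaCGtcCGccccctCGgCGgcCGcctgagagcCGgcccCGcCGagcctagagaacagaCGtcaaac

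Tet2 had 57 CpG in its window, at the 99.9th percentile of the 32851 RefSeq start windows of this length. The long-form Dnmt3a window had 47, the Dnmt3b window 30 and the short-form Dnmt3a window 18, against a median of 7 over all windows. Over the 16 windows annotated for the 9 genes the number ran from 2 to 57, and 8 of the 16 had an observed over expected CpG ratio above 0.6, as had 35.8% of all windows. The 3 windows of Dnmt3l held 3 to 6 CpG each, and the lowest number, 2, was in the most upstream Dnmt1 window. A GC box core (GGGCGG, either strand, itself holding a CpG) lay in 12 of the 16 windows and in 35.7% of all windows. The E2F-type word TTTCCCGC (either strand) was in none of the 16 and in 1.07% of all windows, and the OTX2-type word TAATCC (either strand) was in the Tdg window alone and in 7.06% of all windows. These are matches of letters and no binding was measured.

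Withdrawal of LIF2i changed 8 of the 9 genes, 4 upwards and 4 downwards, where 40.7% of all genes tested were called (21.1% raised, 19.7% lowered). The de novo enzymes Dnmt3b and Dnmt3a rose with Tet3 and Tdg, and the maintenance pair Dnmt1 and Uhrf1 fell with Tet1 and Tet2. Dnmt3l was the member not called. The groups did not overlap for 7 of the 9 genes, against 40.7% of all genes. The tests were edgeR quasi-likelihood tests with the replicate number as a block and Benjamini-Hochberg adjustment over all genes. In these bulk libraries a change in RNA per cell and a change in the share of cells that hold the RNA cannot be told apart.

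**Figure D1:**
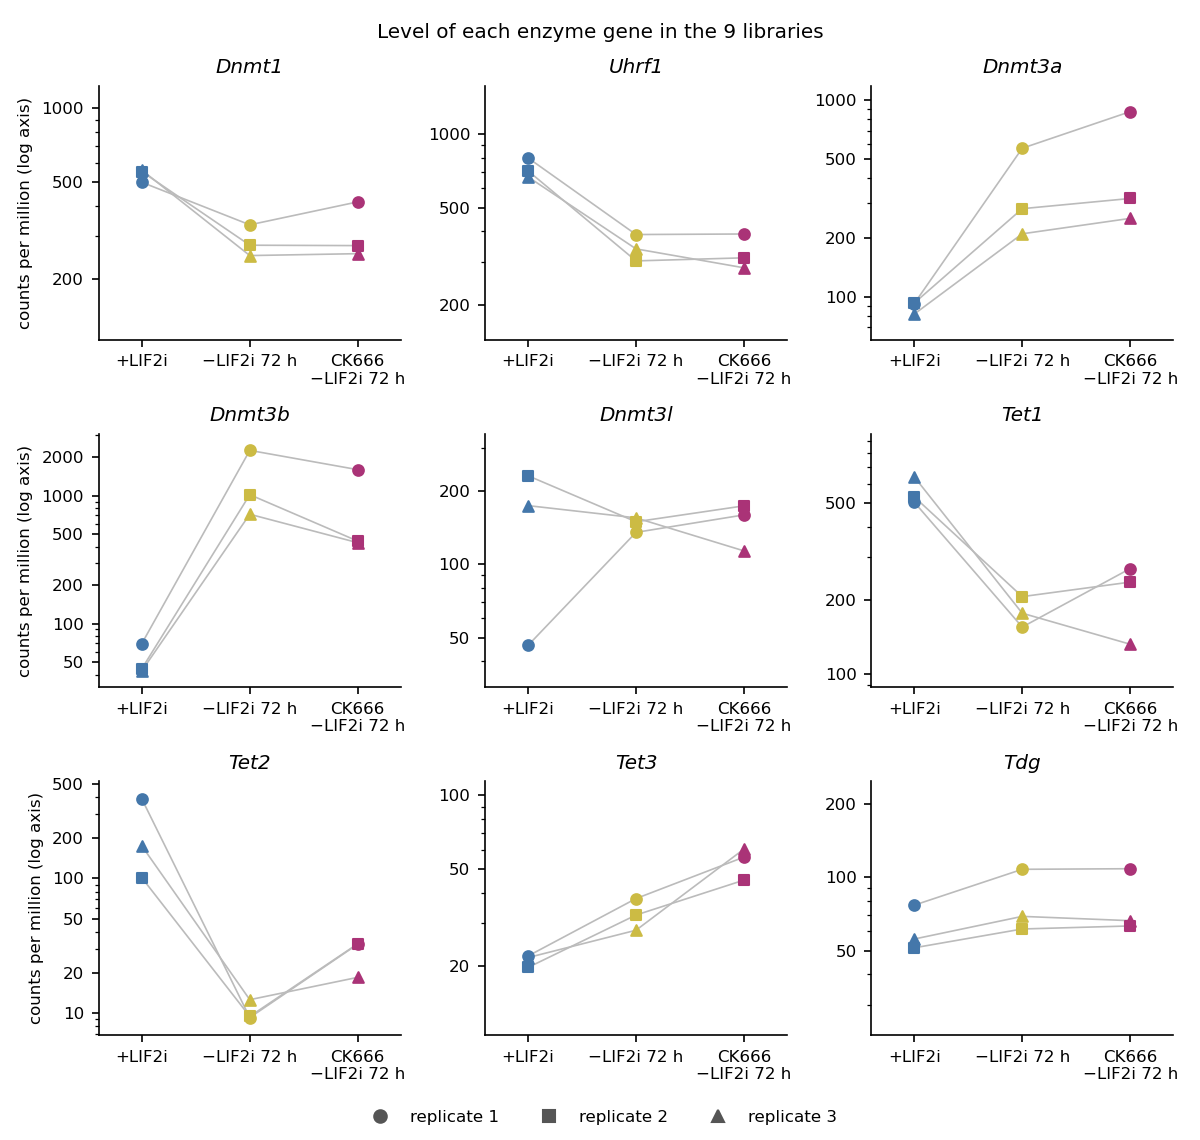
Level of each gene in each library in CPM on a log axis (9 panels, 3 groups, symbols for replicate numbers, lines joining libraries of the same number). Dnmt3b and Dnmt3a are higher in all 6 libraries without LIF2i than in the 3 with it, and Tet2 is lower in all 6.

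Among the maintenance genes, Dnmt1, which copies methylation at replication, stood at 499, 551 and 559 CPM in replicates 1 to 3 with LIF2i, at 334, 275 and 249.8 CPM without it, and at 414, 274 and 254 CPM with CK666. Every library without LIF2i lay below every library with it, and the -LIF2i and CK666 groups overlapped. The log2 fold change after withdrawal was -0.93 (SE 0.16, adjusted p = 0.00191, edgeR, lower in 3 of 3 pairs). Uhrf1, the reader of hemimethylated CpG, read 799.8, 708 and 669 CPM with LIF2i, 388, 303 and 339 CPM without it, and 390.4, 312 and 284 CPM with CK666. Its fall was of about the same size, -1.08 on the log2 scale (SE 0.12, adjusted p = 0.000125, edgeR, 3 of 3 pairs). Per unit of transcript length, summed here and in the ratios below over the transcripts with a mean share of at least 5% of a gene's counts over the 9 libraries, Uhrf1 stayed above Dnmt1 in every library: the ratio of their TPM was 1.75 to 2.00 with LIF2i, 1.72 to 2.07 without it and 1.32 to 1.77 with CK666. Over every annotated transcript it was 1.91 to 3.07, 1.81 to 2.16 and 1.51 to 1.90, the highest value being that of the +LIF2i replicate 1 library, where the transcripts above the limit held 61.5% of the Uhrf1 TPM.

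Among the de novo genes, Dnmt3b had the largest rise of the 9. It read 69.9, 44.4 and 42.8 CPM with LIF2i and 2259, 1018 and 716 CPM after withdrawal. The log2 fold change was 4.51 (SE 0.26, adjusted p = 5.34e-06, edgeR), a fold of 22.8, and the 3 pairs gave ratios of 32.3, 22.9 and 16.7. Dnmt3a, at 92.6, 93.1 and 81.8 CPM with LIF2i, reached 569, 281 and 209 CPM, a log2 fold change of 1.80 (SE 0.28, adjusted p = 0.0012, edgeR, 3 of 3 pairs). Both genes were highest in replicate 1 among the -LIF2i and among the CK666 libraries. Because Dnmt3b started below Dnmt3a and rose further, its part of their summed TPM went from 42.6, 30.2 and 30.9% to 77.0, 78.2 and 77.2% in replicates 1 to 3. Over every annotated transcript it went from 39.5, 35.2 and 36.7% to 75.9, 77.7 and 77.6%: the transcripts above the 5% limit held 97.0, 63.0 and 69.6% of the Dnmt3b TPM with LIF2i, with Dnmt3b-206 among those left out.

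Dnmt3l, which stimulates both de novo enzymes, gave no call in any of the comparisons. It read 46.5, 230.2 and 174 CPM with LIF2i, 135, 149 and 155 CPM without it, and 159, 173 and 113 CPM with CK666. The +LIF2i libraries thus spanned the whole range of the other groups, with the replicate 1 library far below the other 2. The log2 fold change after withdrawal was 0.11 (95% interval -1.10 to 1.32, adjusted p = 0.867, edgeR, higher in 1 of 3 pairs). Without the +LIF2i replicate 1 library it was -0.42 (adjusted p = 0.055, edgeR), so the sign turned with that library. Relative to the enzymes it stimulates, the TPM of Dnmt3l over that of Dnmt3a plus Dnmt3b was 0.770, 5.38 and 4.20 with LIF2i and 0.127, 0.309 and 0.450 after withdrawal.

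The TET genes went in different directions. Tet1, the TET best known from embryonic stem cells, read 504, 530.1 and 640.0 CPM with LIF2i, 155, 207 and 177 CPM without it, and 269.6, 237 and 132 CPM with CK666. Its log2 fold change after withdrawal was -1.65 (SE 0.24, adjusted p = 0.000721, edgeR, 3 of 3 pairs). Tet2, a TET without the CXXC domain that binds DNA in its relatives, fell most of all 9 genes, from 389.6, 101 and 174 CPM to 9.26, 9.45 and 12.6 CPM, a log2 fold change of -4.25 (SE 0.46, adjusted p = 0.000278, edgeR). Its +LIF2i replicate 1 value was far above the other 2, and the log2 fold change was -3.71 without that library (adjusted p = 0.000554) and -3.61 without all of replicate 1 (adjusted p = 0.00216, edgeR). Tet3, best known from the zygote and from neurons, rose from 22.0, 19.8 and 21.7 CPM to 37.8, 32.4 and 28.1 CPM, a log2 fold change of 0.63 (SE 0.15, adjusted p = 0.00953, edgeR, 3 of 3 pairs). The Tet3 call was lost without the -LIF2i replicate 2 library (log2 fold change 0.55, adjusted p = 0.0583) and without all of replicate 2 (0.59, adjusted p = 0.0724).

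Tdg, the glycosylase that acts after the TET enzymes, rose least. It stood at 76.8, 51.3 and 55.8 CPM with LIF2i, at 108, 61.3 and 69.0 CPM without it, and at 108, 63.1 and 66.3 CPM with CK666. The groups overlapped, but each pair went up, and the log2 fold change was 0.35 (SE 0.11, adjusted p = 0.0311, edgeR). This call held in 8 of 20 alternative settings, with adjusted p from 0.015 to 0.404, and was lost without the +LIF2i replicate 1 library (log2 fold change 0.30, adjusted p = 0.0585), the -LIF2i replicate 1 (0.0876), 2 (0.0712) or 3 (0.111) library, the +LIF2i replicate 3 library (0.0741) or the CK666 replicate 2 library (0.0564). Of the exonic bases of Tdg, 6.83% overlap Glt8d2 on the opposite strand, and the labels do not state whether the counting used strand. The shares were 2.24% for Dnmt3l with Aire, 0.799% for Dnmt3a with Dnmt3aos and 0.255% for Tet2 with Gm42567, and the other 5 genes had none.

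Levels between genes were compared per length, as TPM on the same 5% basis. With LIF2i the order of the mean levels was Uhrf1 (268 ± 35.7 TPM, SD, n = 3), Dnmt1 (142 ± 18.8), Dnmt3l (132 ± 69.1), Tet1 (50.8 ± 8.89), Tet2 (34.4 ± 30.7), Dnmt3a (30.0 ± 9.16), Tdg (28.3 ± 11.6), Dnmt3b (17.3 ± 11.1) and Tet3 (3.06 ± 0.924). The means of Dnmt1 and Dnmt3l, those of Tet1 and Tet2, and those of Tet2, Dnmt3a and Tdg, did not differ beyond their spread. Tet2 was at 69.4, 11.7 and 22.3 TPM in replicates 1 to 3. It was above Tet1 (55.9 TPM) in replicate 1 and below Dnmt3a and Tdg in replicates 2 and 3, so its place rests on the replicate 1 library. Dnmt3b was below Tet2, Dnmt3a and Tdg in each of the 3 libraries, although the SDs overlap. After withdrawal the order was Dnmt3b (503 ± 365), Dnmt3a (148 ± 111), Dnmt3l (143 ± 7.48), Uhrf1 (143 ± 29.9), Dnmt1 (78.5 ± 21.1), Tdg (36.9 ± 16.3), Tet1 (16.5 ± 0.811), Tet3 (5.08 ± 1.50) and Tet2 (1.34 ± 0.248). Here the means from Dnmt3a to Uhrf1 lay within their spread, and Dnmt3b was above Dnmt3a in each library. Tet2, in the middle of the order with LIF2i by its replicate 1 value, was at the end of the order. Over every annotated transcript the order with LIF2i was the same, but after withdrawal Uhrf1 (156 ± 31.2) stood above Dnmt3l (148 ± 7.28), and Tet1 (52.6 ± 14.6) stood above Tdg (40.3 ± 15.8) in each library, so the order of Tet1 and Tdg depends on the transcripts summed.

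The summed TPM of Dnmt3a and Dnmt3b over that of the 3 TET genes was 0.547, 0.641 and 0.448 with LIF2i in replicates 1 to 3. It was 49.8, 19.1 and 14.6 after withdrawal and 25.2, 8.78 and 10.3 with CK666. The balance therefore passed from more TET RNA to more de novo methyltransferase RNA in each of the 6 libraries without LIF2i, and it was lower with CK666 than in the control of the same number in 3 of 3 pairs. Summed over every annotated transcript, the group means were 0.318, 10.9 and 5.28 against 0.545, 27.8 and 14.8. The transcripts above the 5% limit held only 21.1 to 45.1% of the summed Tet1 TPM, the rest lying in short annotated fragments. Within the TET pool, Tet2 gave 53.6, 21.4 and 27.5% of the TPM with LIF2i and 5.09, 5.09 and 7.48% after withdrawal, while Tet3 gave 3.16 to 4.21% and then 18.2 to 28.3%. Over every annotated transcript the Tet2 part was 39.0, 11.5 and 19.6% and then 3.28, 2.89 and 6.57%, and the Tet3 part was 1.48 to 1.93% and then 6.50 to 9.92%, in the same directions from lower shares. These ratios are descriptions and were given no test.

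**Figure D2:**
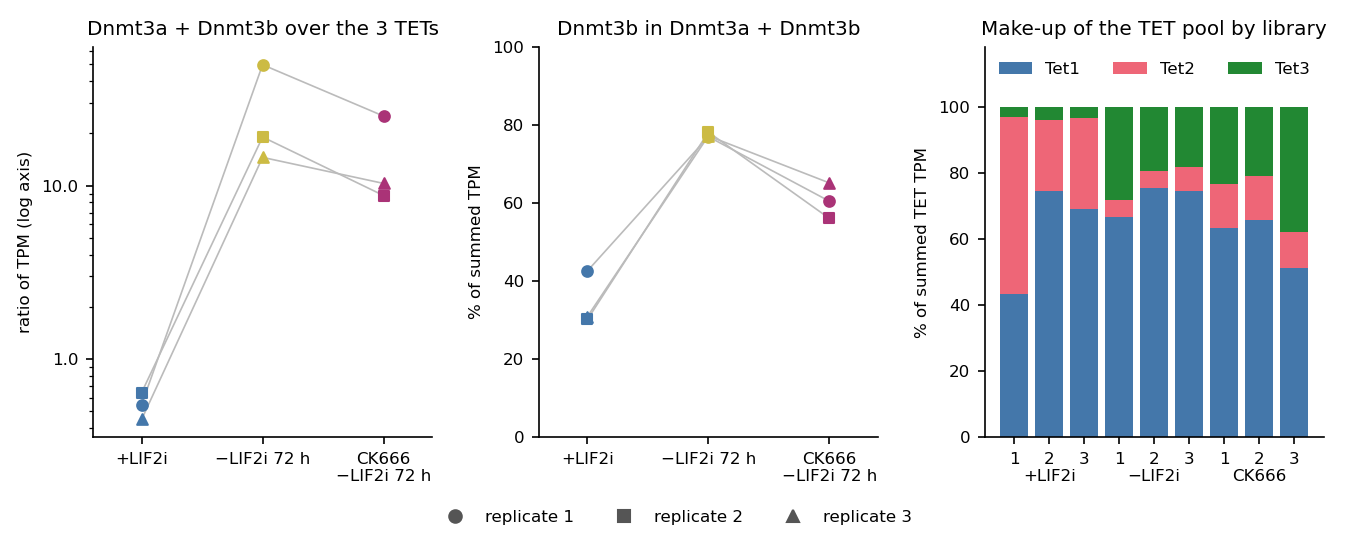
Summed TPM of Dnmt3a and Dnmt3b over that of Tet1, Tet2 and Tet3 per library on a log axis (left), the part of Dnmt3b in Dnmt3a plus Dnmt3b (middle) and the parts of the TET genes in their sum for each of the 9 libraries (right), over transcripts with a mean share of at least 5% of a gene's counts. The ratio is below 1 in the 3 libraries with LIF2i and at least 8.78 in the 6 without it, and the Dnmt3b part is 77.0 to 78.2% after withdrawal and 56.1 to 65.2% with CK666.

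CK666 during withdrawal was compared with the -LIF2i controls, and 1 of the 9 genes was called, where 2.05% of all genes were (1.15% raised, 0.894% lowered, and 19.7% at an unadjusted p below 0.05). The called gene was Tet3, which rose further, to 55.9, 45.0 and 60.3 CPM against 37.8, 32.4 and 28.1 CPM. The groups did not overlap, and the log2 fold change was 0.71 (SE 0.15, adjusted p = 0.049, edgeR, 3 of 3 pairs). The call lay at the threshold: it held in 6 of 20 alternative settings, with adjusted p from 0.00326 to 0.498, while the log2 fold change stayed between 0.52 and 0.81. The settings that ended it included the fit without the replicate block (adjusted p = 0.334), both other scalings (0.0519 and 0.0514) and the removal of any 1 of the 6 libraries compared (0.0753 to 0.266). Over all genes, leaving out 1 of these 6 libraries took the number called from 300 to between 2 and 406. Leaving out the +LIF2i replicate 1 library, which is in the fit but not in the comparison, took it to 1657.

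Tet2 and Dnmt3b moved against their withdrawal response in every pair but missed the threshold. Tet2 read 32.5, 32.7 and 18.4 CPM with CK666, each above the 9.26, 9.45 and 12.6 CPM of the controls, so these were 2 of the 9 genes, with Tet3, whose groups did not overlap, against 16.5% of all genes. The log2 difference of Tet2 was 1.39 (95% interval 0.21 to 2.56, adjusted p = 0.129, edgeR, higher in 3 of 3 pairs), and it ran from 0.91, without the CK666 replicate 2 library, to 1.81, without all of replicate 3. Dnmt3b read 1596, 441 and 429 CPM against 2259, 1018 and 716 CPM, which overlap because replicate 1 is high in both groups. Within pairs the ratios were 0.707, 0.434 and 0.599, and the log2 difference was -0.80 (95% interval -1.42 to -0.17, adjusted p = 0.0957, edgeR). Dnmt3b passed in 5 of 20 settings: with only the 2 groups fitted (adjusted p = 0.00879), without the +LIF2i replicate 1 library (0.00481), without the CK666 replicate 1 library (0.0371), without all of replicate 1 (0.00218) and with DESeq2 (0.00585). Tet2 passed in 2 of 20, with only the 2 groups fitted (0.02) and without the +LIF2i replicate 1 library (0.0477).

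The other 6 genes were not called between CK666 and control. Dnmt3a was higher with CK666 in 3 of 3 pairs, at 874, 316 and 251 CPM against 569, 281 and 209 CPM, with overlapping groups and a log2 difference of 0.38 (95% interval -0.38 to 1.13, adjusted p = 0.492, edgeR), which was 0.00109 without the CK666 replicate 1 library. With Dnmt3b lower, its part of the summed Dnmt3a and Dnmt3b TPM was 60.5, 56.1 and 65.2%, below all -LIF2i libraries. The 95% intervals of the log2 difference were -0.33 to 0.57 for Dnmt1, -0.39 to 0.25 for Uhrf1, -1.15 to 1.22 for Dnmt3l, -0.43 to 0.89 for Tet1 and -0.31 to 0.30 for Tdg. These intervals use the 4 residual degrees of freedom, fewer than the edgeR tests, and are therefore wider than the tests imply. A change of 2-fold, which is 1 on this scale, lay outside them for Dnmt1, Uhrf1, Tet1 and Tdg. It lay inside for Dnmt3l. For Dnmt3a, with an upper limit of 1.13, it lay inside only narrowly and is not settled.

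Set against the +LIF2i libraries, the CK666 libraries differed in 8 of the 9 genes, where 36.9% of all genes were called (19.8% raised, 17.1% lowered), and 7 of the 9 did not overlap, against 37.3%. The control libraries are the same as in the withdrawal comparison, so the pair of results is not independent. Beside the log2 fold changes of withdrawal alone, those of withdrawal with CK666 were 3.71 against 4.51 for Dnmt3b, 2.17 against 1.80 for Dnmt3a, -2.86 against -4.25 for Tet2, -1.42 against -1.65 for Tet1 and 1.34 against 0.63 for Tet3. They were -0.81 against -0.93 for Dnmt1, -1.15 against -1.08 for Uhrf1, 0.35 against 0.35 for Tdg and 0.14 against 0.11 for Dnmt3l. The largest adjusted p among the 8 called genes was 0.0348, for Tdg (edgeR), whose call held in 6 of 20 alternative settings. That of Dnmt1 was lost without all of replicate 2 (adjusted p = 0.0514) or replicate 3 (0.0895), and that of Tet1 with an effective-length offset (-0.85, adjusted p = 0.0639). Those of Uhrf1, Dnmt3a, Dnmt3b, Tet2 and Tet3 held in 20 of 20. For Tet2 the log2 fold change was -2.29 without the +LIF2i replicate 1 library. Without replicate 1 Dnmt3l was also called, with a log2 fold change of -0.50 (adjusted p = 0.0311, edgeR).

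**Figure D3:**
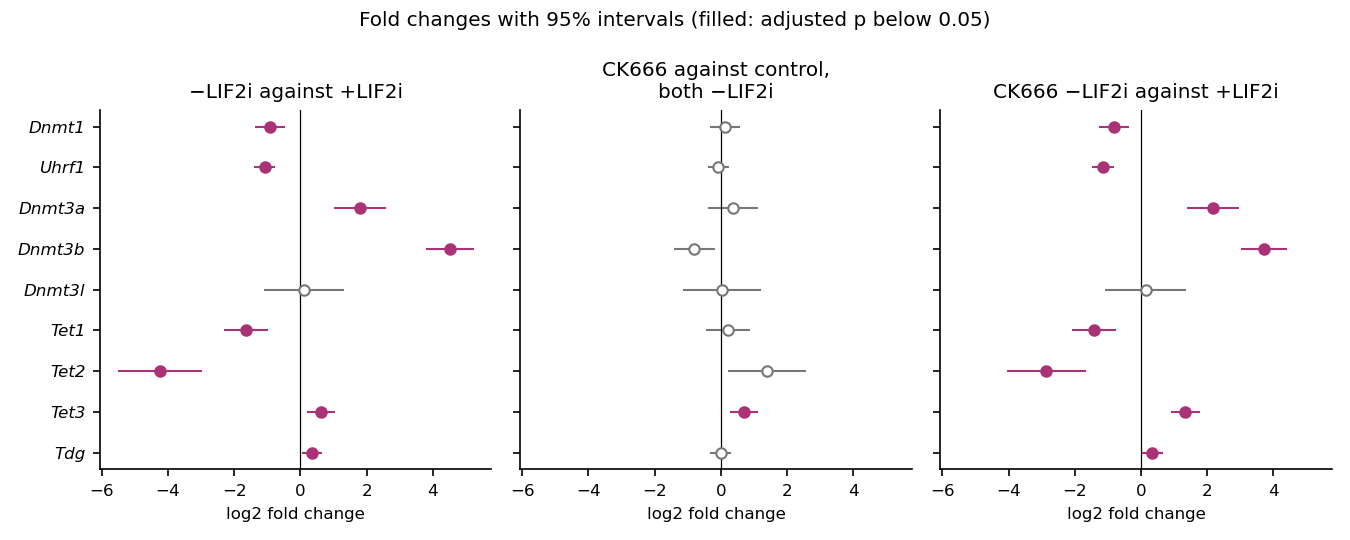
Log2 fold changes with 95% intervals (edgeR, 4 residual degrees of freedom) for the 9 genes in the withdrawal, CK666 and CK666 against +LIF2i comparisons, filled where the adjusted p over all genes was below 0.05. In the middle panel only Tet3 is filled, while the intervals of Tet2 and Dnmt3b also leave 0 out.

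The make-up of Dnmt3b by isoform was examined next, since the gene is spliced into forms with and without parts of the catalytic domain. In the 24-exon transcript Dnmt3b-201, exons 22 (70 bases, chr2:153683608-153683677) and 23 (119 bases, chr2:153684359-153684477) encode part of the methyltransferase domain and were skipped together in the annotation, which removes 63 codons in frame. Exon 11 (60 bases, chr2:153670849-153670908), upstream of that domain, is skipped on its own or with them and removes 20 codons. The exons are printed from the GENCODE M21 transcript (GRCm38, plus strand, 5′ to 3′), with the exon in capitals and 15 bases of the neighbouring exons in lower case.
Dnmt3b exon 11: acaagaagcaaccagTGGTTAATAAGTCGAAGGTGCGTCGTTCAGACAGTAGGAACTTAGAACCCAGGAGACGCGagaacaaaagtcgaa
Dnmt3b exon 22: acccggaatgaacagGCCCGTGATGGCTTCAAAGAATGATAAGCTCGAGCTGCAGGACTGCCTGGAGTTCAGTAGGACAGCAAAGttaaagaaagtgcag
Dnmt3b exon 23: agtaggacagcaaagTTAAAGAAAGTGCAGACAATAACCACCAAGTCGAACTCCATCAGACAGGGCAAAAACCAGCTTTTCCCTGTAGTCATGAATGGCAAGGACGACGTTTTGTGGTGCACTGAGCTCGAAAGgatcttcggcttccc

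Exons 22 and 23 were included in 68.9, 48.7 and 54.1% of Dnmt3b counts with LIF2i, over full-length coding transcripts, in replicates 1 to 3. After withdrawal the inclusion was 81.8, 87.1 and 84.8%, and with CK666 it was 76.0, 77.5 and 79.8%. All 3 groups were separate: the CK666 libraries lay between the others, below the control of the same number in 3 of 3 pairs. Exon 11 was included in 97.0, 75.7 and 78.1% with LIF2i, in 99.2, 99.3 and 98.2% without it, and in 98.8, 96.0 and 98.2% with CK666. The exons were picked after the transcript values had been seen, so their inclusion is a description with no test. It rests on 705 to 1422 Dnmt3b counts per library with LIF2i and on 7677 to 46817 without it, divided among transcripts by the authors' quantifier.

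Of the 3 main transcripts that hold exons 11, 22 and 23, Dnmt3b-202 (859 codons) was the one whose share was higher after withdrawal in 3 of 3 pairs. It was at 17.1, 2.23 and 3.73% of the gene's counts with LIF2i. It made up 38.8, 43.5 and 39.9% after withdrawal and 34.3, 29.1 and 36.2% with CK666. The log2 odds of its share was higher by 3.58 (SE 0.72) in 3 of 3 pairs, with an unadjusted p of 0.0032 and an adjusted p of 0.247 (limma over all transcripts), so it was not called. Without the +LIF2i replicate 1 library the log2 odds difference was 4.51 (adjusted p = 0.0903, limma). The other 2, of 860 codons each, gave log2 odds of no settled sign and were not called: Dnmt3b-201 held 22.1, 15.2 and 23.3% with LIF2i and 26.2, 15.8 and 15.7% after withdrawal (log2 odds -0.11, SE 0.38, adjusted p = 0.922, limma, higher in 2 of 3 pairs), and Dnmt3b-207 held 28.2, 28.0 and 22.9% and then 16.0, 26.8 and 27.1% (-0.27, SE 0.39, adjusted p = 0.809, limma, higher in 1 of 3 pairs). Over the alternatives they ran from -0.37 to 0.21 and from -0.56 to 0.16, turning for Dnmt3b-201 without the +LIF2i or the -LIF2i replicate 3 library and for Dnmt3b-207 without the +LIF2i replicate 1 library. Dnmt3b-208, which skips exons 22 and 23 (796 codons), was at 29.6, 28.5 and 27.0%, then 18.1, 12.7 and 14.8%, and with CK666 23.6, 21.1 and 19.7%. Its log2 odds differed by -1.16 after withdrawal (SE 0.29, adjusted p = 0.326, limma, 3 of 3 pairs) and by 0.62 with CK666 (SE 0.29, adjusted p = 1.00, limma, 3 of 3 pairs). Dnmt3b-206, which skips all 3 exons (776 codons), held 1.58, 21.5 and 18.2% with LIF2i and at most 1.25% in any library without it, and was below the 5% mean share required for a test. In the shares of Dnmt3b-202 and Dnmt3b-206 the replicate 1 library with LIF2i was again unlike the other 2, nearer to the withdrawn cells. In that of Dnmt3b-208 it was not.

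No transcript of any gene passed this test. Limma called 0 of 22872 transcripts (0%) in each of the 3 comparisons, with 2286, 1060 and 2051 at an unadjusted p below 0.05 for withdrawal, CK666 and CK666 against +LIF2i. The edgeR test of transcript use (diffSpliceDGE) called 27, 0 and 23, and limma without the replicate block called 59, 3 and 38. Dnmt3b-202 was called in 1 of 17 alternative settings after withdrawal, with adjusted p from 0.013 to 0.72, and its log2 odds stayed between 1.79 and 4.56. For CK666 against +LIF2i its log2 odds was higher by 3.10 (SE 0.72, adjusted p = 0.352, limma, 3 of 3 pairs). It was called there in 1 of 17 settings as well.

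Dnmt3a uses a start within the gene for its short form (Dnmt3a-205, 689 codons), which lacks the amino-terminal part of the long form (Dnmt3a-201 and Dnmt3a-218, 908 codons each). The short form held 42.1, 30.8 and 35.3% of Dnmt3a counts with LIF2i, 52.0, 41.3 and 40.6% after withdrawal and 52.6, 45.5 and 34.5% with CK666. Each pair was higher after withdrawal, with a log2 odds of 0.52 (SE 0.28, adjusted p = 0.575, limma), and the groups overlapped. The long forms held 46.6 to 58.7% of the counts after withdrawal. Their transcripts are longer (9685 and 8737 against 2328 bases), and per length the short form was at 31.3, 16.3 and 17.7 TPM with LIF2i and 226, 72.6 and 53.9 TPM after withdrawal, against 16.3, 14.1 and 9.61 TPM and then 51.7, 28.4 and 19.8 TPM for all transcripts of the upstream start region. Over all genes, shares of start regions gave calls for 0.107% after withdrawal, 0% for CK666 and 0.0932% for CK666 against +LIF2i, none of them in the 9 genes. Between CK666 and control the log2 odds of the short form was -0.03 (SE 0.28, adjusted p = 1.00, limma, 2 of 3 pairs higher).

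**Figure D4:**
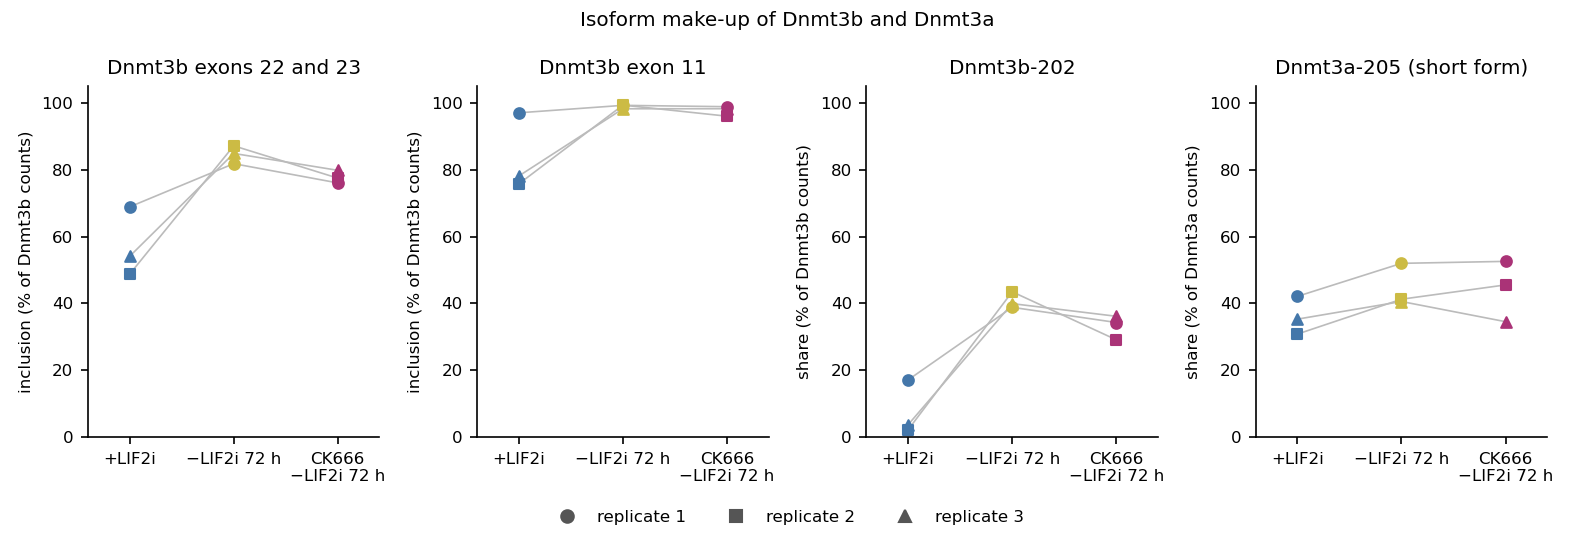
Inclusion of Dnmt3b exons 22 and 23 and of exon 11, in percent of the estimated counts of full-length coding Dnmt3b transcripts per library. The shares of Dnmt3b-202 and of the short form of Dnmt3a are in percent of the gene's estimated counts. Inclusion of exons 22 and 23 is 48.7 to 68.9% with LIF2i, 81.8 to 87.1% without it and 76.0 to 79.8% with CK666, while the short form of Dnmt3a overlaps between the groups.

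Among the other members, Tet1-206 (2039 codons) held 89.8 to 97.6% of Tet1 counts in every library. Tet3-202 (1668 codons) held 75.4 to 94.0%, and Tet3-203, which starts upstream and has 1803 codons, held 22.0, 5.98 and 9.12% with LIF2i and 24.6, 16.4 and 15.8% after withdrawal, a log2 odds of 0.90 (SE 0.42, adjusted p = 0.546, limma, 3 of 3 pairs). Dnmt1-202, which starts upstream of Dnmt1-201 and has 1501 codons against 1620, stayed between 28.7 and 43.9%. Uhrf1-201 held 61.3 to 77.8% and Uhrf1-202 5.14 to 23.3% of Uhrf1 counts. Uhrf1-204, which has the same number of codons as Uhrf1-201 (782), held 9.51 to 13.5% with LIF2i, 1.83, 13.9 and 9.75% without it and 6.52, 0.328 and 0.0132% with CK666, lower than with LIF2i in 3 of 3 pairs (log2 odds -5.01, SE 2.12, adjusted p = 0.568, limma). Tet2-204 (1920 codons) held 56.0 to 88.0% of Tet2 counts, and Tet2-201 (1912 codons) held 6.22 to 7.20% with LIF2i, 0 to 29.3% without it and 12.4 to 22.1% with CK666, with no call in any comparison. No share of the Tdg or Dnmt3l transcripts was called, the smallest adjusted p being 0.468, for Tdg-208 with CK666 against +LIF2i (limma).

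By a rule of likeness over the 9 libraries, the protein-coding genes whose log2 CPM followed that of Dnmt3b most closely were Riox2 (r = 0.99), Skil (0.99) and Mycl (0.99). For Dnmt3a they were Pgls, Sox12 and Creb3l1 (each 0.98), and for Dnmt3l Rab40c (0.99), Rpl15 (0.97) and Gsk3a (0.96). These are the highest of 9489 genes over 9 libraries that share groups and replicate numbers, so they are descriptions.

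Of 42 other genes of the pathway, 11 rose and 14 fell after withdrawal, 59.5% against 40.7% of all genes, with a median log2 fold change of -0.19 against 0.01 over all genes. Base excision repair and GADD45 genes had 2 of 13 up and 7 of 13 down, methyl-CpG readers 3 of 8 up and 2 of 8 down, and cofactor genes 4 of 8 up and 3 of 8 down. Recruiters and remodellers had 2 of 11 up and 1 of 11 down. Prdm14, which represses the de novo enzymes in naive cells, went from 43.5 to 55.7 CPM with LIF2i to at most 0.363 CPM without it (adjusted p = 8.66e-06, edgeR) and stood at 0.391 to 0.849 CPM with CK666. Zfp57, which guards methylation at imprints, fell by 2.28 on the log2 scale (SE 0.25), the reader Zbtb38 by 1.98 (SE 0.19) and Idh2, a mitochondrial source of the alpha-ketoglutarate that TET enzymes need, by 1.57 (SE 0.11). By this fit, the largest rises were those of Cdca7l, a relative of the remodelling factor Cdca7 (1.11, SE 0.24), Mat2a, which makes the methyl donor (0.79, SE 0.16), Zbtb33 (0.75, SE 0.14) and Mbd1 (0.69, SE 0.18), the last a pair of methyl-CpG readers. D2hgdh was close behind (0.67, SE 0.23). Leaving out libraries took Mat2a from 0.61 to 0.96 and Mbd1 from 0.55 to 0.83, so the order is not settled. The call held in 20 of 20 alternative settings for Cdca7l, 19 for Mat2a, 18 for Zbtb33 and 16 for Mbd1.

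With CK666 against control, 1 of the 42 rose and 1 fell, 4.76% against 2.05% of all genes, with a median of 0.03 against 0.02. Mat2a fell by 1.68 on the log2 scale (SE 0.17, adjusted p = 0.00743, edgeR, 3 of 3 pairs), from 100.4 to 199.5 CPM in the controls to 36.5 to 57.5 CPM. Uhrf2, the paralogue of Uhrf1, rose by 0.61 (SE 0.13, adjusted p = 0.0469, edgeR, 3 of 3 pairs), from 61.1 to 83.4 CPM to 98.2 to 122 CPM, while Uhrf1 itself differed by -0.07. The Mat2a call held in 16 of 20 alternative settings and was lost without the -LIF2i replicate 2 library (adjusted p = 0.0555), the -LIF2i replicate 3 library (0.0565), all of replicate 3 (0.0909) or the replicate block (0.303). The Uhrf2 call held in 8 of 20 and was lost without any 1 of the 6 libraries compared (0.0944 to 0.260). Against +LIF2i, the CK666 libraries had 8 of the 42 higher and 12 lower, 47.6% against 36.9% of all genes. By this fit, the largest differences upwards were those of Gadd45a (1.07, SE 0.31), Cdca7l (0.80, SE 0.24), Uhrf2 (0.70, SE 0.13) and Mbd1 (0.62, SE 0.18), and after Prdm14 the largest downwards were those of Zfp57 (-1.98, SE 0.25), Zbtb38 (-1.61, SE 0.18) and Idh2 (-1.26, SE 0.11). Leaving out libraries took Gadd45a from 0.58 to 1.43 and Cdca7l from 0.48 to 1.02, so the order of these genes is not settled. The Gadd45a call was lost without the +LIF2i replicate 1 (adjusted p = 0.0731, edgeR), the CK666 replicate 1 (0.100) or the CK666 replicate 2 library (0.0777), and that of Cdca7l without the CK666 replicate 1 (0.0965) or 3 (0.111) library. The Mbd1 call held in 13 of 20 alternative settings.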

How the data were processed

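Messenger RNA of 9 E14 cultures was sequenced (NEBNext Ultra kit, per the labels' protocols), and the authors deposited per-transcript estimated counts and TPM for each library. The submitters' processing notes name FastQC, cutadapt 1.8.1, kallisto and sleuth, and the builds mm10 and GRCh38 with no role; the transcript release and strand setting are not given in the sources used here. Of 119414 deposited transcripts, 116640 (97.7%) mapped to GENCODE M21 genes, including all 88 of the members. Estimated counts were summed per gene and rounded, filtered (filterByExpr), scaled by TMM and tested with edgeR 4.0.16 (glmQLFit, glmQLFTest, R 4.3.3) in 1 fit of all libraries with the replicate number as a block. The block follows the design text, which calls the replicates paired: deviations of same-numbered libraries from their group means correlated at 0.30 to 0.65, against -0.53 to 0.29 between different numbers. The latter were positive only between replicates 2 and 3 (0.21 to 0.29, against 0.30 to 0.51 within these numbers), so part of the pairing is replicate 1 standing apart. Deviations from a group mean cancel within the group, so positive values within numbers bring negative ones between numbers. Shares of transcripts (mean share 5 to 95%, gene mean of at least 20 counts) were tested as log2 odds with a pseudocount of 0.5 in limma 3.58.1. Adjusted p-values are Benjamini-Hochberg over everything tested, called below 0.05. The 95% intervals use the 4 residual degrees of freedom, fewer than the edgeR tests, so they are wider than the tests imply. DESeq2 1.42.0 and limma-voom were alternatives. Counting intervals were not used, since transcript assignment is estimated. The fits were also run on simulated data without a replicate effect or an odd library. These runs do not bear on the block, and no result here rests on them. The members and lists were chosen with earlier results of these data known; other pathway genes were named by size, up to 4 called per direction. Replicates of 1 line measure the spread between these cultures.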

Additional observations from a re-analysis of the deposited data

How the results depend on the processing

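Without the replicate block, 7, 0 and 7 of the 9 members were called for withdrawal, CK666 and CK666 against +LIF2i, and 3509, 0 and 2966 of all genes (1251 for CK666 at an unadjusted p below 0.05, edgeR), against 5967, 300 and 5408 with it. Without the pairing, the log2 fold change of Dnmt3l turned to -0.037 after withdrawal and -0.0145 for CK666 against +LIF2i. The unblocked share tests called 59, 3 and 38 transcripts and 33, 2 and 31 start-site groups, against 0 in each comparison with the block.

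The number of genes called for CK666 was 565 with no low-count filter, 147 with an effective-length offset, 1367 with only the 2 groups fitted, 1140 with DESeq2 and 553 with limma-voom. Leaving out libraries or replicates gave 3099 to 6588 genes for withdrawal, 0 to 1811 for CK666 and 2413 to 6129 for CK666 against +LIF2i. Among the other results, the sign turned for Dnmt3l for CK666 with only the 2 groups fitted (-0.0124), Tdg for CK666 with no filter (0.0030) and the Dnmt3a-205 share for CK666 from TPM (0.0179), all next to 0; uncalled withdrawal shares, those of Dnmt3b-201 and Dnmt3b-207 among them, also crossed 0. Leaving out libraries moved the log2 fold change of Dnmt3l from -0.42 to 0.53 after withdrawal, from -0.48 to 0.30 for CK666 and from -0.50 to 0.55 for CK666 against +LIF2i. For CK666 the range was -0.0913 to 0.22 for Dnmt1, -0.14 to 0.0236 for Uhrf1, -0.10 to 0.55 for Tet1 and -0.0587 to 0.0348 for Tdg, and for log2 odds of shares -0.20 to 0.19 for Dnmt3a-205 and -1.01 to 0.000447 for Dnmt3b-202. The Dnmt1-202 share ran from -0.0777 to 0.23 for CK666 against +LIF2i. The cause was not tested.

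For withdrawal and CK666 against +LIF2i, a pseudocount of 5 gave 106 and 24 transcripts and 140 and 74 start-site groups, a mean gene count of at least 200 gave 12 and 13 transcripts and 15 and 10 groups, and diffSpliceDGE gave 27 and 23 transcripts and 9 and 13 groups. Start regions linked within 1000 bases, added after seeing the data, gave 8 and 7. Leaving out libraries gave 0 to 2 transcripts in each comparison, 0 to 1 start-site groups for withdrawal and 0 to 2 for the others. The withdrawal calls of Dnmt1, Uhrf1, Dnmt3a, Dnmt3b, Tet1 and Tet2 held in 20 of 20 alternatives. With 3 libraries a group, 4 residual degrees of freedom limit the precision, and the Dnmt3b shares with LIF2i rest on few counts.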
